A study of Mus musculus with 8 samples.

Results

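The genes described here are the constant genes of the immunoglobulin heavy chains (Ighm, Ighd, Ighg2b, Ighg2c and Igha) and light chains (Igkc and Iglc1), with Jchain, the joining chain of polymeric antibody. They were picked by symbol from a list of 9 names, and 8 of these were found among 13703 rows of gene-level FPKM. The remaining name, Mzb1, is not analysed here. The list was drawn up with the contrast between these liver libraries already known, so the genes' levels are given as a description, without a test.

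Bulk RNA sequencing covered 8 libraries of mouse liver. In 4 libraries (Alb-Cre) the mice carried loxP-flanked Bicd2 on both alleles (Bicd2fl/fl) and Cre recombinase under the albumin promoter, a hepatocyte promoter that is not active in the B lineage. The other 4 libraries (Alb-WT) were Bicd2fl/fl without Cre. All 8 came from the S-100 model of autoimmune hepatitis (AIH): 2.5 mg of a liver supernatant emulsified in complete Freund's adjuvant was given into the peritoneum weekly for 3 weeks, and tissue was collected 2 weeks after the final dose. The sources used here give neither age nor sex, and livers without immunization were not analysed here. The labels do not state that the libraries came from separate animals, so the p-values rest on a spread among these libraries that could be technical in part or whole.

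The FPKM values were scaled to 32793770 to 39157210 fragments per library. Bicd2, the floxed gene, had 0.705, 0.568, 0.509 and 0.732 FPKM in Alb-Cre replicates 1 to 4, against 2.46, 3.02, 2.80 and 3.11 FPKM in Alb-WT replicates 1 to 4, so each library matched its label. Alb-Cre replicate 4 stood apart from its group. Across tested genes its Pearson correlation on the log2 scale was 0.958 to 0.960 with the other Alb-Cre libraries and 0.974 to 0.977 with the Alb-WT libraries, while the values among Alb-Cre replicates 1 to 3 were 0.995 to 0.996. Genes are not independent in these values. Replicate 4 is therefore shown apart, and group values are given with and without it.

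Antibodies are built from paired heavy and light chains. A B cell first makes IgM and IgD from Ighm and Ighd, and class switching then joins the same variable region to a downstream constant gene for IgG or IgA. Plasma cells, the end stage of the lineage, hold very large amounts of these transcripts, and Jchain links IgM and IgA into polymers that epithelia and hepatocytes of some species can carry into bile. Raised serum IgG is a hallmark of autoimmune hepatitis. In bulk tissue, fewer cells of a type and less RNA per cell cannot be told apart.

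The antibody genes gave 2 opposite pictures within the Alb-Cre group. In Alb-Cre replicates 1 to 3, 7 of the 8 genes were below every Alb-WT library, by ratios of means from 0.0955 for Ighg2b to 0.667 for Jchain, and the exception was Ighm. In Alb-Cre replicate 4, all 8 were at their highest level of the 8 libraries, at 1.09 times the Alb-WT mean for Igha and 11.3 times for Ighg2c. These shares stand beside those over 11077 tested genes, whose mean reached 0.5 FPKM: replicates 1 to 3 were all below Alb-WT for 46% of genes, and replicate 4 was the highest library for 26%. Both properties together held for 7 of the 8 genes, beside 10.2% of all tested genes. Replicate 4 was at least 2 times the Alb-WT mean for 7 of the 8, beside 2.18% of all tested genes. As these genes were picked on this contrast, nothing further is read from the counts. With replicate 4 in the group, 0 of the 8 separated the 4 Alb-Cre from the 4 Alb-WT values, beside 30.6% of tested genes.

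**Figure D1:**
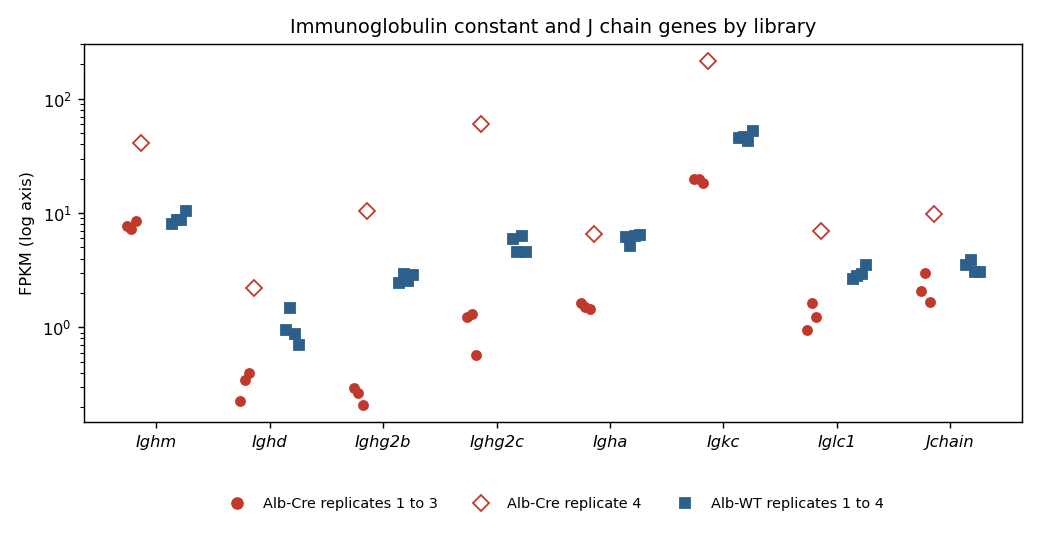
FPKM on a log axis of the 8 immunoglobulin constant and J chain genes, 1 point per library, with Alb-Cre replicates 1 to 3 as filled circles, Alb-Cre replicate 4 as an open diamond and Alb-WT replicates 1 to 4 as squares. The diamond is the highest point of each gene, and the circles lie below the squares for all but Ighm.

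Ighm, the constant gene of IgM, was the 1 of the 8 genes for which Alb-Cre replicates 1 to 3 were not all below Alb-WT. Its level was 7.74, 7.30, 8.53 and 41.5 FPKM in Alb-Cre replicates 1 to 4, against 8.06, 8.77, 8.75 and 10.5 FPKM in Alb-WT replicates 1 to 4. Alb-Cre replicates 1 and 2 were below every Alb-WT library and replicate 3 was within their range. The mean was 7.86 ± 0.621 FPKM in Alb-Cre replicates 1 to 3 (SD, n = 3) and 9.01 ± 1.02 FPKM in Alb-WT (SD, n = 4), a ratio of 0.872. Alb-Cre replicate 4 was at 4.60 times the Alb-WT mean. With all 4 Alb-Cre libraries the mean was 16.3 ± 16.8 FPKM, the SD exceeding the mean itself, and the log2 fold change on the log2(FPKM + 1) scale was 0.39, or -0.17 without replicate 4.

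Ighd, the constant gene of IgD on mature B cells that have not switched, was lower in level. It had 0.225, 0.346, 0.397 and 2.19 FPKM in Alb-Cre replicates 1 to 4, against 0.942, 1.46, 0.870 and 0.696 FPKM in Alb-WT. Alb-Cre replicates 1 to 3 were below every Alb-WT value, at 0.325 times their mean, and replicate 4 was above every one, at 2.21 times. The recovered fragments behind these levels were 14, 22, 27 and 163 in Alb-Cre and 60, 108, 55 and 49 in Alb-WT, so counting error is large for this gene. The ratio of Ighm to Ighd was 34.5, 21.1, 21.5 and 18.9 in Alb-Cre and 8.56, 5.998, 10.1 and 15.03 in Alb-WT. It was higher in each Alb-Cre library, replicate 4 included, than in any Alb-WT library.

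Ighg2b and Ighg2c, constant genes of the IgG2 subclasses, had the widest span of the 8 genes as a ratio of the highest to the lowest library, though not in FPKM. They are close relatives, so the stretch of coding sequence in which they differ most is shown first, since fragments from such stretches can be assigned to one gene. Over 1004 aligned coding bases of the GENCODE M21 transcripts (GRCm38, chromosome 12) 862 were identical, or 85.9%. Of the 955 runs of 50 bases in Ighg2c, 56 also occur in Ighg2b (5.86%). The 60 coding bases that differ most, at 888 to 947 of Ighg2c and 891 to 950 of Ighg2b, run 5′ to 3′ with the 26 differing bases in capitals.
Ighg2c: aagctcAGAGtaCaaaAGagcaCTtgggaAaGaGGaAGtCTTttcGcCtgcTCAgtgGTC
Ighg2b: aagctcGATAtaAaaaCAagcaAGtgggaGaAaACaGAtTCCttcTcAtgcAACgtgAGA
Other stretches are the same in both genes, and fragments lying wholly inside them cannot be told apart. An example is the run at 485 to 544 of Ighg2c and 488 to 547 of Ighg2b.
shared by Ighg2c and Ighg2b: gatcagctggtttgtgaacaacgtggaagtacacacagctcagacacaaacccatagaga
How the authors' counting treated such fragments is not given in the sources used here, so the split between the pair is uncertain to that extent.

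Ighg2b had 0.296, 0.268, 0.209 and 10.4 FPKM in Alb-Cre replicates 1 to 4, against 2.43, 2.91, 2.56 and 2.89 FPKM in Alb-WT. The means of 0.258 ± 0.0445 FPKM in Alb-Cre replicates 1 to 3 (SD, n = 3) and 2.70 ± 0.242 FPKM in Alb-WT (SD, n = 4) gave a ratio of 0.0955, the lowest of the 8 genes. Alb-Cre replicate 4 was at 3.84 times the Alb-WT mean and 40.2 times the mean of the other Alb-Cre libraries. The 4 Alb-WT libraries were close together, with a coefficient of variation of 8.96%. The counts were 26, 24, 20 and 1087 fragments in Alb-Cre and 218, 303, 228 and 287 in Alb-WT.

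Ighg2c, the IgG2 subclass gene of strains such as C57BL/6 that lack IgG2a, departed furthest in replicate 4. It had 1.24, 1.31, 0.570 and 60.2 FPKM in Alb-Cre replicates 1 to 4, against 5.96, 4.58, 6.32 and 4.52 FPKM in Alb-WT. Alb-Cre replicates 1 to 3 averaged 1.04 ± 0.408 FPKM (SD, n = 3), or 0.194 times the Alb-WT mean of 5.34 ± 0.932 FPKM (SD, n = 4). Replicate 4 was at 11.3 times the Alb-WT mean and 57.9 times that of its own group's other libraries. Of the 11077 tested genes, 8 had a higher ratio of replicate 4 to the Alb-WT mean. The log2 fold change over all libraries was -0.41, and -1.65 without replicate 4. It was 0.12 without Alb-Cre replicate 3, so its sign rested on which library was left out.

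Ighg3, the constant gene of IgG3, was outside the list of 9 and did not reach the mean of 0.5 FPKM. It was the only 1 found of 7 further constant genes looked for. Ighg1, Ighg2a, Ighe, Iglc2, Iglc3 and Iglc4 were not found. All sums, shares and ratios of chains and isotypes below therefore cover only the constant genes found. It had 0.0486, 0.190, 0.111 and 1.01 FPKM in Alb-Cre, against 0.0356, 0.143, 0.0478 and 0.236 FPKM in Alb-WT. Alb-Cre replicates 1 to 3 lay within the Alb-WT range, while replicate 4 was above every Alb-WT library, on 99 fragments against 3 to 22.

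Igha, the constant gene of IgA, the main antibody of mucosal surfaces, differed from the IgG genes in replicate 4. It had 1.62, 1.51, 1.45 and 6.55 FPKM in Alb-Cre, against 6.16, 5.16, 6.35 and 6.40 FPKM in Alb-WT. Alb-Cre replicates 1 to 3 averaged 1.53 ± 0.0892 FPKM (SD, n = 3) and the Alb-WT libraries 6.02 ± 0.583 FPKM (SD, n = 4), a ratio of 0.254. Replicate 4 was 1.09 times the Alb-WT mean, just above the highest Alb-WT library. The log2 fold change was -1.08 with all libraries and -1.47 without replicate 4.

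Igkc, the kappa light chain constant gene and the most abundant of the 8, had 20.1, 19.8, 18.2 and 213.8 FPKM in Alb-Cre replicates 1 to 4, against 45.0, 46.5, 42.7 and 52.3 FPKM in Alb-WT. Its means were 19.4 ± 1.02 FPKM in Alb-Cre replicates 1 to 3 (SD, n = 3) and 46.6 ± 4.07 FPKM in Alb-WT (SD, n = 4), a ratio of 0.415, and replicate 4 was at 4.59 times the Alb-WT mean. Iglc1, a lambda light chain constant gene, had 0.940, 1.64, 1.23 and 6.92 FPKM in Alb-Cre, against 2.63, 2.83, 2.91 and 3.51 FPKM in Alb-WT. The order of the libraries was alike for both: replicates 1 to 3 of Alb-Cre lowest, Alb-WT between, replicate 4 highest. The kappa gene made up 95.5%, 92.3%, 93.7% and 96.9% of the summed Igkc and Iglc1 FPKM in Alb-Cre, and 94.5%, 94.3%, 93.6% and 93.7% in Alb-WT. Replicate 4 had the highest kappa share, and replicates 1 to 3 spanned the Alb-WT values.

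Light and heavy chain levels kept close to a fixed ratio across the libraries. Summed heavy chain constant genes came to 11.2, 10.9, 11.3 and 121.8 FPKM in Alb-Cre, against 23.6, 23.0, 24.9 and 25.2 FPKM in Alb-WT. The light chain sum of Igkc and Iglc1 was 21.0, 21.5, 19.4 and 220.7 FPKM in Alb-Cre, against 47.6, 49.3, 45.6 and 55.8 FPKM in Alb-WT. The light to heavy ratio was 1.88, 1.97, 1.72 and 1.81 in Alb-Cre and 2.02, 2.14, 1.83 and 2.21 in Alb-WT. The groups overlapped in this ratio, and replicate 4 lay within the range of the other Alb-Cre libraries although its sums were far higher.

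**Figure D2:**
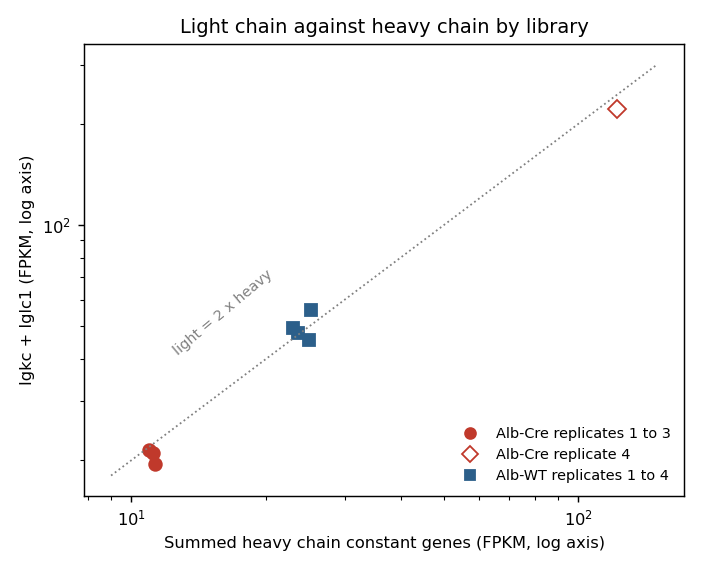
Summed light chain constant FPKM (Igkc and Iglc1) against summed heavy chain constant FPKM, both on log axes, 1 point per library, with a dotted line at a light to heavy ratio of 2. Alb-Cre replicate 4 (open diamond, 121.8 heavy and 220.7 light FPKM), Alb-Cre replicates 1 to 3 (filled circles) and Alb-WT replicates 1 to 4 (squares) lie along the line at ratios of 1.72 to 2.21.

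Jchain had 2.10, 3.00, 1.66 and 9.73 FPKM in Alb-Cre, against 3.49, 3.91, 3.06 and 3.05 FPKM in Alb-WT. Replicates 1 to 3 of Alb-Cre averaged 2.25 ± 0.687 FPKM (SD, n = 3) and Alb-WT 3.38 ± 0.414 FPKM (SD, n = 4) and the ratio was 0.667. Alb-Cre replicate 2 was just below the lowest Alb-WT library. After median-of-ratios scaling the groups overlapped, with 1.83 to 3.38 in Alb-Cre replicates 1 to 3 and 2.79 to 3.67 in Alb-WT, so 6 of the 8 genes were then below every Alb-WT library, while replicate 4 was still the highest library for 8 of 8. Relative to Igha, Jchain was at 1.29, 1.99, 1.14 and 1.49 in Alb-Cre and 0.568, 0.759, 0.481 and 0.476 in Alb-WT. This ratio was higher in each Alb-Cre library, replicate 4 included, than in any Alb-WT library. Relative to Ighm it was 0.271, 0.411, 0.194 and 0.235 in Alb-Cre and 0.433, 0.446, 0.349 and 0.291 in Alb-WT, and the groups overlapped.

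The mixture of isotypes differed between libraries as well as the amount. Ighm made up 69.3%, 66.8%, 75.7% and 34.0% of the summed heavy chain constant FPKM in Alb-Cre, against 34.2%, 38.1%, 35.1% and 41.5% in Alb-WT. The 3 IgG genes found, without Ighg1, together made up 14.2%, 16.2%, 7.90% and 58.8% in Alb-Cre. In Alb-WT they made up 35.7%, 33.2%, 35.9% and 30.3%. Alb-Cre replicates 1 to 3 thus had a higher IgM share and a lower IgG share than every Alb-WT library, and replicate 4 had the highest IgG share of all 8. Its IgM share was close to the Alb-WT values, just below them by FPKM and within their range by fragments (37.2%, against 31.7% to 37.6% in Alb-WT). Igha made up 14.5%, 13.8%, 12.8% and 5.38% in Alb-Cre, against 26.1%, 22.4%, 25.5% and 25.4% in Alb-WT, lower in each Alb-Cre library than in any Alb-WT library.

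Within IgG, Ighg2c took most of the signal. It was 11.1%, 12.0%, 5.06% and 49.4% of the heavy chain sum in Alb-Cre, and 25.3%, 19.9%, 25.4% and 17.9% in Alb-WT. Of Ighg2b and Ighg2c together, Ighg2c was 80.7%, 83.0%, 73.2% and 85.3% in Alb-Cre and 71.1%, 61.1%, 71.2% and 61.0% in Alb-WT. Each Alb-Cre library, replicate 4 included, was above each Alb-WT library in this split, which sequence shared by the pair could blur. Group means of these shares hide the division inside Alb-Cre: IgG was 24.3 ± 23.3% in Alb-Cre and 33.8 ± 2.60% in Alb-WT (SD, n = 4 each).

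The shares depend on the scale because gene models differ in length, from 1326 bp for Ighg2c to 2678 bp for Ighg2b. As shares of recovered fragments, Ighg2c was 7.51%, 8.10%, 3.39% and 38.0% in Alb-Cre, of 719, 716, 797 and 8222 heavy chain fragments, against 16.5%, 12.8%, 16.6% and 11.4% in Alb-WT. The 95% Wilson interval in replicate 4 was 37.0% to 39.1%. For Ighg2c, Alb-Cre replicates 1 to 3 were lowest, Alb-WT between and replicate 4 highest on both scales. Intervals cover counting error only, since fragments without molecular identifiers are not independent molecules.

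**Figure D3:**
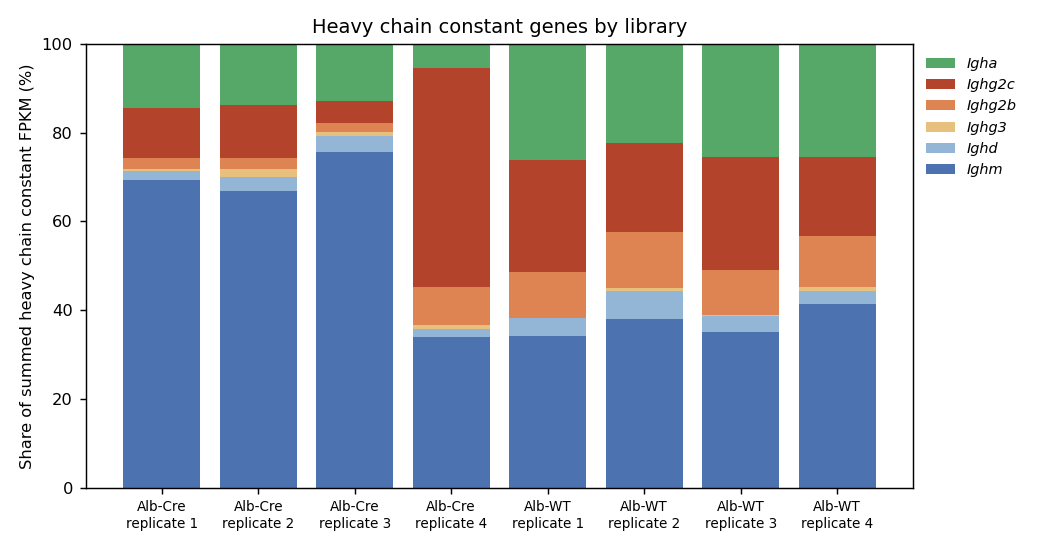
Stacked bars of the share of summed heavy chain constant FPKM (percent) taken by each heavy chain gene, 1 bar per library, Alb-Cre replicates 1 to 4 on the left and Alb-WT replicates 1 to 4 on the right. Ighm fills 66.8% to 75.7% of Alb-Cre replicates 1 to 3 and 34.0% of replicate 4, in which Ighg2c fills 49.4%.

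Variable segments, the parts of the same transcripts that carry the antigen-binding region, were not on the list of constant genes. Being parts of the same transcripts, they are not independent of those genes. The table held 14 of them (11 Igkv, 1 Ighv, Iglv1 and Iglv2), and 12 were tested. By limma with Benjamini-Hochberg adjustment 2 fell, 0 rose and 10 did not pass, with a median log2 fold change of -0.11 beside -0.13 over all tested genes. Over all genes, 23.3% were called lower and 8.48% higher. Without Alb-Cre replicate 4, 7 of the 12 fell and 5 did not pass, beside 46.1% of all genes called lower. The filter for that fit stayed that of all libraries. Of the 7, Igkv17-127, Igkv1-110, Igkv8-27 and Igkv5-39 averaged 0.275 to 0.492 FPKM in Alb-Cre replicates 1 to 3 and over 0.5 FPKM in Alb-WT. Igkv9-120, Igkv15-103 and Ighv1-55, which did not pass, averaged under 0.5 FPKM in both. Nothing is therefore read from this count.

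Iglv2 and Iglv1, the lambda variable segments, went different ways in replicate 4, which makes their sequences the ones to show. Their first 300 coding bases (GRCm38, chromosome 16, GENCODE M21) run 5′ to 3′ below, with the 8 bases that differ in capitals.
Iglv1: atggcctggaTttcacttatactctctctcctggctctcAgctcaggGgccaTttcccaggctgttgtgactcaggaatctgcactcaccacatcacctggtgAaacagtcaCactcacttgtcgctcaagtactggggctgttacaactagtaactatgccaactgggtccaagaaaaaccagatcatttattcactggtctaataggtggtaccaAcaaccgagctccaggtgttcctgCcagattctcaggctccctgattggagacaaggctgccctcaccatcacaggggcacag
Iglv2: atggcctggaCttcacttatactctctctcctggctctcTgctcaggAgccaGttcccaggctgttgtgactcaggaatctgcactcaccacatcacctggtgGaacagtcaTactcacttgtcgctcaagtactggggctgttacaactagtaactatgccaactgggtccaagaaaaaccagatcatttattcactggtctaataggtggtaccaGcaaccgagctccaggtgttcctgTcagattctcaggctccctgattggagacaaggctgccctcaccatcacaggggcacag
Over the whole 351 aligned bases 340 were identical, or 96.9%, and 76 of 302 runs of 50 bases in Iglv1 were shared (25.2%), so the split of fragments between them is uncertain.

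Iglv2 had 0.750, 1.22, 0.535 and 1.05 FPKM in Alb-Cre, against 3.10, 3.23, 3.04 and 3.61 FPKM in Alb-WT, and replicate 4 lay among its own group. It fell by 1.18 on the log2 scale (SE 0.12, limma adjusted p = 0.00044), with a highest adjusted p of 0.0062 over the alternatives. Iglv1 had 1.56, 3.74, 2.86 and 17.0 FPKM in Alb-Cre, against 5.34, 5.06, 5.15 and 5.94 FPKM in Alb-WT, with a log2 fold change of -0.24 (limma adjusted p = 0.73). Without replicate 4 the Iglv1 change was -0.82 (limma adjusted p = 0.0017). Iglv1 was 67.5%, 75.4%, 84.2% and 94.2% of the pair in Alb-Cre, against 63.3%, 61.0%, 62.9% and 62.2% in Alb-WT, higher in each Alb-Cre library.

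Among kappa segments, Igkv14-111 had 1.66, 0.406, 0.760 and 12.6 FPKM in Alb-Cre, against 2.43, 3.01, 0.980 and 2.05 FPKM in Alb-WT, and the groups overlapped (log2 fold change 0.03, limma adjusted p = 0.98). Igkv8-27, the other segment called lower, had 0.508, 0.0830, 0.233 and 0.568 FPKM in Alb-Cre, against 0.663, 0.786, 0.918 and 1.05 FPKM in Alb-WT. Its mean reached 0.5 FPKM in Alb-WT and not in Alb-Cre, so its being tested depended on the group where it was high, and nothing is read from its call (log2 fold change -0.47, limma adjusted p = 0.026). The call was lost with quantile normalization, with voom and without any 1 of Alb-Cre replicates 2 and 3 or Alb-WT replicates 2, 3 and 4. Igkv5-39 had 0.176, 0.172, 1.13 and 5.37 FPKM in Alb-Cre, against 1.12, 2.52, 0.953 and 1.56 FPKM in Alb-WT, and did not pass (limma adjusted p = 0.72). Of the 14 segments, 12 were highest in Alb-Cre replicate 4, beside 26% of all tested genes. Iglv2 and Igkv8-27 were there below every Alb-WT library. The 11 kappa segments summed to 5.21, 5.75, 4.76 and 44.8 FPKM in Alb-Cre, against 9.52, 14.2, 6.20 and 9.03 FPKM in Alb-WT, and Igkv14-111 led in replicate 4 with 28.2% of that sum. The leading segment took 23.7% to 31.8% in Alb-Cre replicates 1 to 3 and 21.2% to 25.5% in Alb-WT. Fragments over these segments numbered 62, 71, 62 and 642 in Alb-Cre, against 76 to 201 in Alb-WT.

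**Figure D4:**
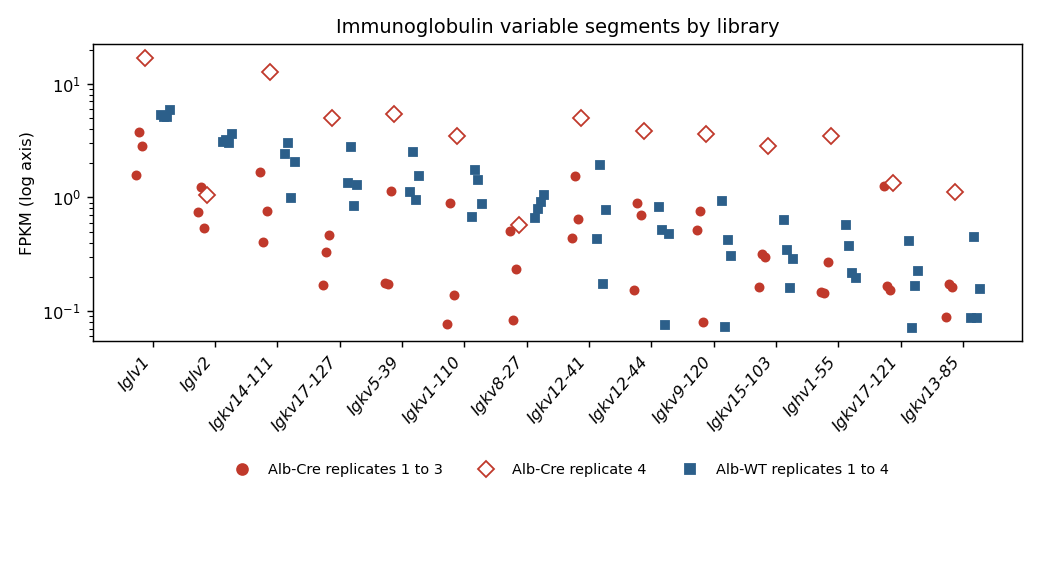
FPKM on a log axis of the 14 immunoglobulin variable segments, 1 point per library, Alb-Cre replicates 1 to 3 as filled circles, Alb-Cre replicate 4 as an open diamond and Alb-WT replicates 1 to 4 as squares. The diamond is the top point for 12 segments and lies below every square for Iglv2 and Igkv8-27.

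B cell genes were measured from a list of 30, of which 24 were in the table and 9 were tested. By limma 4 of the 9 fell, 0 rose and 5 did not pass, with a median log2 fold change of -0.40, beside 23.3% of all tested genes lower and an all-gene median of -0.13. Without replicate 4, 9 of 9 fell, beside 46.1% of all genes. The filter for that fit stayed that of all libraries. Btk, Cd180, Cd79a, Cd22 and Pou2f2 averaged 0.197 to 0.375 FPKM in Alb-Cre replicates 1 to 3 and over 0.5 FPKM in Alb-WT. Nothing is therefore read from the 9 of 9. Without any 1 of the 7 libraries other than replicate 4, 2 of the 9 fell. Cd180, a receptor of the toll-like family, fell by 1.25 (SE 0.27, limma adjusted p = 0.013), and Btk, the kinase of B cell receptor signalling, fell by 0.89 (SE 0.18, limma adjusted p = 0.0096). In Alb-Cre replicate 4, Cd180 and Btk were at 0.768 and 0.710 times the Alb-WT mean. Cd79a, Cd79b and Cd22, which did not pass, were there at 2.14, 1.61 and 1.57 times. Which cells the RNA of these genes came from was not tested. Cd72, a B cell co-receptor, and Pou2f2, a transcription factor of immunoglobulin genes, passed at adjusted p = 0.037 and 0.047 in limma, but each lost its call without any 1 of the 7 libraries other than Alb-Cre replicate 4.

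Cd79a, the signalling chain of the B cell receptor, had 0.272, 0.431, 0.422 and 2.72 FPKM in Alb-Cre, against 1.66, 1.09, 1.28 and 1.04 FPKM in Alb-WT, and did not pass (limma adjusted p = 0.39). The ratio of Igkc to Cd79a was 73.7, 46.0, 43.1 and 78.7 in Alb-Cre and 27.2, 42.5, 33.4 and 50.4 in Alb-WT, and the groups overlapped. That of Ighg2c to Cd79a was 4.56, 3.03, 1.35 and 22.2 in Alb-Cre and 3.59, 4.18, 4.94 and 4.36 in Alb-WT. Alb-Cre replicate 4 was far above the Alb-WT range in this ratio, replicate 1 was within it, and replicates 2 and 3 were below it. The ratio of Ighm to Cd79a was 28.5, 17.0, 20.2 and 15.3 in Alb-Cre, against 4.86, 8.01, 6.84 and 10.1 in Alb-WT, higher in each Alb-Cre library than in any Alb-WT library. Cd79a rested on 13, 21, 22 and 155 fragments in Alb-Cre replicates 1 to 4, so counting error is large for replicates 1 to 3. With Cd79b, the partner chain of Cd79a, in its place, the ratio of Igkc was 21.9, 158, 24.5 and 125 in Alb-Cre and 49.1, 37.0, 48.4 and 43.3 in Alb-WT, so the 2 chains gave different orders for replicates 1 and 3. For Ighm, the separation of the groups seen over Cd79a was not kept over Cd79b. Replicate 1 of Alb-Cre and replicate 1 of Alb-WT had 0.916 and 0.917 FPKM of Cd79b, with 7.74 and 8.06 FPKM of Ighm. Summed over 23 B cell genes other than Ly6d, the level was 4.45 to 5.85 FPKM in Alb-Cre replicates 1 to 3, 20.8 FPKM in replicate 4, and 16.5 to 18.2 FPKM in Alb-WT. Ly6d was kept apart after its values were seen: it had 0.738, 1.28, 0.526 and 32.7 FPKM in Alb-Cre, against 1.20 to 2.06 FPKM in Alb-WT.

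Regulators and surface genes of plasma cells moved less evenly. Of 18 listed, 13 were in the table and 10 were tested, and by limma 1 rose, 4 fell and 5 did not pass, beside 8.48% higher and 23.3% lower over all tested genes. Without Alb-Cre replicate 4, 8 fell, beside 46.1% of all genes. Of the 8, Slamf7 and Itga4 averaged under 0.5 FPKM in Alb-Cre replicates 1 to 3 and over it in Alb-WT. Without any 1 of Alb-Cre replicates 1 and 2 or Alb-WT replicates 1, 3 and 4, 2 fell. Cxcr4, the receptor that draws plasma cells to Cxcl12, fell by 1.37 (SE 0.29, limma adjusted p = 0.011), with 0.692, 0.496, 0.402 and 2.77 FPKM in Alb-Cre, against 3.49 to 4.93 FPKM in Alb-WT. Tent5c, a poly(A) polymerase that stabilizes immunoglobulin transcripts, fell by 0.49 (SE 0.088, limma adjusted p = 0.0060). Sdc1, the surface proteoglycan used to mark plasma cells and also made by hepatocytes, fell by 0.25 (limma adjusted p = 0.022), a call lost after median-of-ratios scaling and without any 1 of Alb-Cre replicates 1 and 2 or Alb-WT replicates 1, 3 and 4. Slamf7, another plasma cell surface protein, had 0.0799, 0.0392, 0.0672 and 1.89 FPKM in Alb-Cre, against 1.23 to 1.85 FPKM in Alb-WT, without passing. Prdm1 and Irf4, which drive plasma cell differentiation, did not reach a mean of 0.5 FPKM.

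Xbp1, the transcription factor of the secretory programme in plasma cells and in hepatocytes, rose by 0.62 (limma adjusted p = 0.017). It had 77.0, 81.9, 76.0 and 125.4 FPKM in Alb-Cre, against 58.2, 55.1, 58.1 and 56.3 FPKM in Alb-WT. With quantile normalization its adjusted p was 0.056. Of 25 listed endoplasmic reticulum folding and secretion factors, 24 were tested, and by limma 18 rose, 0 fell and 6 did not pass, with a median log2 fold change of 0.58. Over all tested genes 8.48% were higher and the median was -0.13. Creld2, a chaperone-like stress protein, had 104 to 115 FPKM in Alb-Cre, against 33.9 to 39.5 FPKM in Alb-WT (log2 fold change 1.56, limma adjusted p = 9.4e-06). Manf, a secreted stress factor, rose by 1.12 and Sdf2l1, a chaperone cofactor, by 1.44 (limma adjusted p = 6.7e-05 for each). Pdia6, a disulfide isomerase, rose by 0.97 (limma adjusted p = 0.00015). In Alb-Cre replicate 4, 24 of 24 were above every Alb-WT library, a count whose share over all genes was not computed. Replicate 4 was the highest library for 19 of the 24, beside 26% of all tested genes. The 24 factors summed to 1795 to 1896 FPKM in Alb-Cre replicates 1 to 3, 2019 in replicate 4 and 1103 to 1150 in Alb-WT. Replicates 1 to 3 were thus above Alb-WT in this sum and below it in that of the antibody genes. Hepatocytes make these factors too, and how much of each came from which cell was not tested.

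Genes for antibody transport and Fc receptors gave 7 lower, 1 higher and 4 not passing among 12 tested of 14 listed, by limma, beside 23.3% lower and 8.48% higher over all tested genes. Without Alb-Cre replicate 4, 9 fell and 2 rose, beside 46.1% of all genes lower, and without any 1 of the other 7 libraries 1 or 2 fell and 0 rose. Fcgr4, an activating receptor for IgG2 on myeloid cells, had 5.12, 5.14, 5.75 and 27.4 FPKM in Alb-Cre, against 30.3, 28.4, 26.5 and 27.1 FPKM in Alb-WT (log2 fold change -1.66, limma adjusted p = 0.025). That call was lost without any 1 of the 7 libraries other than Alb-Cre replicate 4. Mrc1, a mannose receptor of macrophages and sinusoidal endothelium, fell by 0.91 (limma adjusted p = 0.00060). Trim21, a cytosolic antibody receptor, fell by 0.58 (limma adjusted p = 0.024), a call lost in the same 7 leave-outs. Fcgrt, which recycles IgG, fell by 0.34 (limma adjusted p = 0.027), a call lost after median-of-ratios scaling and without any 1 of Alb-Cre replicates 1 and 2 or Alb-WT replicates 1, 3 and 4. Asgr1, a hepatocyte receptor for desialylated glycoproteins, was the gene that rose, by 0.29 (limma adjusted p = 0.029), a call lost without any 1 of the 7 libraries other than Alb-Cre replicate 4. Pigr, which carries polymeric IgA and IgM across epithelia, had 211, 216, 217 and 153 FPKM in Alb-Cre, against 242 to 256 FPKM in Alb-WT, and did not pass (limma adjusted p = 0.062).

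Of class switching and germinal centre genes, 14 of 20 listed were tested, and 1 rose, 3 fell and 10 did not pass by limma. These counts were near the shares over all tested genes (8.48% higher and 23.3% lower), so the list as a whole gave no result. Bcl6, the germinal centre repressor that is also made in hepatocytes, fell by 1.36 (limma adjusted p = 0.0042), with 1.49, 1.20, 1.33 and 3.72 FPKM in Alb-Cre, against 5.18 to 6.66 FPKM in Alb-WT. Xrcc5, a subunit of the Ku complex that joins switch breaks, rose by 0.43 (limma adjusted p = 0.0041). Lmo2 fell by 1.05 (limma adjusted p = 0.016) and Mki67, a marker of dividing cells, by 0.84 (limma adjusted p = 0.017). The Mki67 call was lost without Alb-Cre replicate 1 or 3 or Alb-WT replicate 1. Without Alb-Cre replicate 4, 2 rose and 5 fell, beside 46.1% of all genes lower.

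Signals that attract or sustain B cells and plasma cells gave 5 lower, 0 higher and 7 not passing of 12 tested, from 23 listed, by limma, beside 23.3% lower over all tested genes. The median log2 fold change was -0.84, beside -0.13 over all. Cxcl12 fell by 0.66 (limma adjusted p = 0.0042) and Icos, the costimulator of helper T cells, by 0.83 (limma adjusted p = 0.012). Tgfb1, a cytokine that promotes switching to IgA, fell by 0.92 (limma adjusted p = 0.023), and Cxcl10, an interferon-induced chemokine, by 1.89 (limma adjusted p = 0.025). Both of these calls were lost without any 1 of the 7 libraries other than Alb-Cre replicate 4. Icos here, and Mki67 and Pou2f2 above, had a mean over 0.5 FPKM in Alb-WT and not in Alb-Cre. Cxcl13, which draws B cells into follicles, had 3.34, 2.91, 4.38 and 40.2 FPKM in Alb-Cre, against 22.0, 20.3, 21.6 and 22.1 FPKM in Alb-WT. It was lowest in Alb-Cre replicates 1 to 3 and highest in replicate 4, the order seen for the antibody genes, and it did not pass (limma adjusted p = 0.10). Without replicate 4, 10 of the 12 fell, beside 46.1% of all genes, and without any 1 of the other 7 libraries, 2 fell. Of the 10, Icos, Cd40, Ccl19, Icosl and Ltb averaged under 0.5 FPKM in Alb-Cre replicates 1 to 3 and over it in Alb-WT.

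Markers of other cells moved beside the antibody genes. By limma all 11 macrophage markers (11 of 11 in the table) were lower, beside 23.3% of all tested genes. Of neutrophil markers (7 of 11 in the table) 6 of 6 tested were lower. Over leave-outs these counts ranged from 8 to 11 and from 5 to 6. Macrophage markers summed to 230.9 to 232.7 FPKM in Alb-Cre replicates 1 to 3, 837.4 in replicate 4 and 907.2 to 924.2 FPKM in Alb-WT. Neutrophil markers summed to 7.46 to 7.79, 90.4 and 267.3 to 329.3 FPKM in the same order. For T cell markers (9 of 14 in the table) 0 of 6 tested passed in limma, where 3 had an unadjusted p under 0.05 and 2 passed with voom. Without Alb-Cre replicate 4, 6 of 6 were lower, beside 46.1% of all genes. The filter for that fit stayed that of all libraries. Cd2, Lck, Cd3g and Cd3d averaged 0.135 to 0.235 FPKM in Alb-Cre replicates 1 to 3 and over 0.5 FPKM in Alb-WT. Nothing is therefore read from this count. T cell marker sums were 1.95 to 2.18 FPKM in Alb-Cre replicates 1 to 3, 16.8 in replicate 4 and 9.85 to 10.7 in Alb-WT. Hepatocyte markers, 12 of 12, summed to 47586 to 49328 FPKM, 36689 FPKM and 47015 to 47950 FPKM in that order, and red cell markers, 5 of 8, to 129.1 to 177.3, 74.1 and 358.0 to 462.7 FPKM. Replicate 4 was above Alb-WT for the antibody and T cell sums and below it for the macrophage, neutrophil, red cell and hepatocyte sums. Macrophage markers were not alike in this: replicate 4 was above every Alb-WT library for 2 (Marco and Cd68). It was within the Alb-WT range for 1 (Lyz2) and below it for 8. No value in the table was 0. The part of these cells in the antibody gene levels was not tested.

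Single markers of these lists were named by the smallest p among those called, or by abundance where none was called. Among macrophage genes Vsig4 fell by 1.06, Ly6c2 by 1.90, Clec4f by 1.03 and Adgre1 by 1.59 on the log2 scale (limma adjusted p = 0.00072 to 0.0038). Among neutrophil genes Elane fell by 2.98, S100a9 fell by 4.18 and S100a8 fell by 4.17, and Mmp9, which reached the filter through the Alb-WT mean, fell by 0.84 (limma adjusted p = 0.0011 to 0.0055). Of the globin genes, Hbb-bt fell by 2.30 and Hba-a1 by 2.03 (limma adjusted p = 0.00024 and 0.0022). Hba-a2, a near copy of Hba-a1 with uncertain fragments, fell by 1.21 (limma adjusted p = 0.037), a call lost after median-of-ratios scaling and without any 1 of Alb-Cre replicates 1 and 2 or Alb-WT replicates 2 and 4. Among hepatocyte genes Pck1 fell by 0.82, Tat by 0.46 and Cyp2e1 by 0.37 (limma adjusted p = 0.00045, 0.0040 and 0.014). The last 2 calls were lost after median-of-ratios scaling. These were the only 3 called of 12 tested, and 9 did not pass. The hepatocyte sum itself was not lower in Alb-Cre replicates 1 to 3. Without Alb-Cre replicate 4, 3 of the 12 rose and 7 fell, beside 1679 higher and 5112 lower over all tested genes. The T cell genes Trbc2 and Lck, with log2 fold changes of -1.11 and -0.75, did not pass (limma adjusted p = 0.10 and 0.071).

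**Figure D5:**
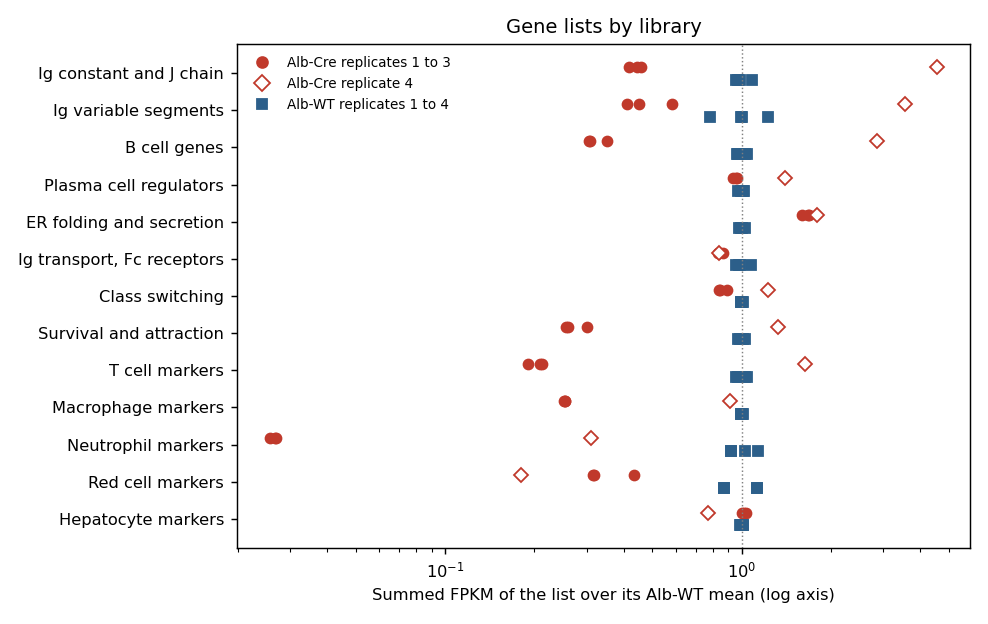
Summed FPKM of each gene list divided by its Alb-WT mean, on a log axis, 1 point per library, with Alb-Cre replicates 1 to 3 as filled circles, Alb-Cre replicate 4 as an open diamond, Alb-WT replicates 1 to 4 as squares and a dotted line at 1. The constant and J chain genes chosen and the variable segments have the diamond far right of the squares and the circles left of them. The same order holds for B cell genes (Ly6d included), plasma cell regulators, class switching genes, attraction signals and T cell markers. Their diamonds lie at 2.86, 1.40, 1.22, 1.33 and 1.64 times the Alb-WT mean. The endoplasmic reticulum list has diamond and circles to the right.

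The genes outside immunoglobulins whose pattern was most like that of a member were found by Pearson correlation of log2(FPKM + 1) over the 8 libraries. For Igkc the first was Lcn2, an iron-siderophore binding protein of the acute phase, at 0.997, with 102, 102, 112 and 1213 FPKM in Alb-Cre and 253, 273, 252 and 278 FPKM in Alb-WT. For Ighm the first was Saa3, an acute phase apolipoprotein, at 0.997, with 33.5, 33.1, 36.4 and 107 FPKM in Alb-Cre and 34.7, 38.7, 35.5 and 39.7 FPKM in Alb-WT. For Jchain it was Pnp, a purine salvage enzyme, at 0.980. Replicate 4 sets these values: over the 7 libraries without it the first genes were Zswim8 at 0.999 for Igkc, Tmed1 at 0.984 for Ighm and Zranb1 at 0.977 for Jchain. With so few libraries and so many genes, high values of this kind are a description.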

How the data were processed

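The values were gene-level FPKM, fragments scaled by gene length and library total, computed by the authors and deposited as 1 table with a column per library. HISAT2 2.0.5 was used, per the submitters' processing notes, which also list the builds mm39 and hg38 with no role. Which counting tool, annotation and strand setting were used is not given in these sources. Bulk libraries were made from Trizol-extracted total RNA, per the labels' protocols, although the sample descriptions also name 10x Genomics.

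Groups and replicate numbers came from the sample titles. The genes described and the lists were chosen with earlier results of these data known. The test was limma 3.58.1 (R 4.3.3, empirical Bayes with an intensity trend) on log2(FPKM + 1), over those 11077 of 13703 rows whose mean reached 0.5 FPKM. Calls were at a Benjamini-Hochberg adjusted p under 0.05 over all tested rows. Fold changes on this scale understate those of low genes. The 8 immunoglobulin genes chosen were among the rows fitted, but no p-value or call of theirs is used, because they were chosen on this contrast. Of each list, the 4 genes with the smallest p among those called were named, or the 2 most abundant where none was, with the 4 most abundant variable segments; other genes named were picked after their values were seen.

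Whole reads were recovered from the FPKM steps for 100% of rows (tolerance 1e-05 fragments), with gene lengths from GENCODE M21 merged exons, which equalled the implied length for 12706 of 13452 rows. Recovered fragments totalled 32524927 to 38893858 per library. Run on these reads as an alternative, voom called 936 genes higher and 2868 lower. Low genes rest on few fragments and are less precise. Sequences were read from GENCODE M21 transcripts (GRCm38), which need not be the authors' build, and aligned with Biopython 1.88. Other settings were pseudocount 0.1, no filter, a mean of at least 2 FPKM, median-of-ratios and quantile scaling, voom, a replicate block and leaving out each library. Scripts were tested on simulated data. Other steps used Python 3.11.15, pandas 2.3.3 and matplotlib 3.10.9.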

Additional observations from a re-analysis of the deposited data

Results flagged for a closer look

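In groups of 4, a library was picked out when its gap to the nearest other library was, as a part of the group's range, above Dixon's 95% critical value. Of 120 values checked, 60 of them in Alb-Cre, 38 were picked out. Alb-Cre replicate 4 accounted for 32 and Alb-WT libraries for 6. Chance picks out about 1 in 20, and values from 1 library are not independent of each other.

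For the antibody genes, replicate 4 was the high library of Alb-Cre at 41.46 FPKM for Ighm, 2.191 FPKM for Ighd, 10.37 FPKM for Ighg2b, 60.22 FPKM for Ighg2c and 6.547 FPKM for Igha. It was also high for Igkc at 213.8 FPKM, Iglc1 at 6.919 FPKM, Jchain at 9.73 FPKM and Ighg3 at 1.006 FPKM. The variable segments Iglv1 at 17.05 FPKM and Igkv14-111 at 12.63 FPKM were picked out in the same library. So were its Ighg2c share of 49.45% and its IgG share of 58.78%.

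Among the other named genes, replicate 4 was the high library of Alb-Cre for Cd180 at 2.30 FPKM, Cxcr4 at 2.769 FPKM, Xbp1 at 125.4 FPKM and Sdf2l1 at 127.0 FPKM. The same held for Trim21 at 3.259 FPKM, Fcgr4 at 27.45 FPKM, Bcl6 at 3.72 FPKM, Lmo2 at 4.81 FPKM and Mki67 at 1.015 FPKM. It held for Icos at 0.9158 FPKM, Cxcl10 at 8.505 FPKM, Trbc2 at 6.643 FPKM and Lck at 1.901 FPKM. Myeloid genes picked out there were Vsig4 at 31.75 FPKM, Ly6c2 at 2.023 FPKM, Adgre1 at 13.54 FPKM, Elane at 2.803 FPKM, S100a9 at 49.51 FPKM and S100a8 at 28.15 FPKM.

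In Alb-WT, replicate 4 was high for Cd72 at 2.579 FPKM and replicate 3 for Pou2f2 at 1.327 FPKM. Replicate 1 was low for Xrcc5 at 6.785 FPKM and Bcl6 at 5.176 FPKM. Replicate 2 was high for S100a9 at 203.6 FPKM and Cyp2e1 at 1830 FPKM.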

How the results depend on the processing

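Over all tested genes, 939 were called higher and 2582 lower. With other scaling, median-of-ratios factors over all rows gave 1874 and 1516, quantile normalization 1522 and 1478, and lower genes made up 73.3% of the calls as reported, 44.7% and 49.3% with these. The median gene moved with them to 0.02, from -0.13. Median-of-ratios factors over the tested genes, a choice made after seeing the data and the result over all rows, gave 1723 and 1658, or 49.0% lower. Leaving out single libraries gave 546 to 1679 higher and 1205 to 5112 lower, both highest without Alb-Cre replicate 4.

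With either median-of-ratios scaling, lower calls were 2 for plasma cell regulators, and transport genes gave 2 higher and 4 lower and class switching genes 3 higher. With quantile normalization, lower calls were 1 for variable segments and 2 for B cell genes, plasma cell regulators gave 0 higher and class switching genes 2 higher. A mean of at least 2 FPKM left 1 variable segment and 0 B cell genes lower (fewer genes tested), and voom left 1 variable segment.

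Over leave-outs, lower calls ranged from 1 to 7 for variable segments, 2 to 9 for B cell genes, 2 to 8 for plasma cell regulators, 1 to 9 for transport genes, 2 to 5 for class switching genes and 2 to 10 for attraction signals. Higher calls ranged from 0 to 2 for transport genes, 1 to 2 for class switching genes and 16 to 20 for folding factors.

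With voom the log2 fold change was -1.94 for Ighg2b and -0.84 for Ighd. Over leave-outs it was -1.65 to 0.12 for Ighg2c, -0.17 to 0.61 for Ighm and -0.45 to 0.23 for Jchain. By fragments the mean share was 14.3% for Ighg2c and 29.5% for IgG in Alb-WT, and for Igha 16.1% in Alb-Cre and 32.4% in Alb-WT. The kappa share in Alb-WT was 94.8%.

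Signs turned for 3 segments that did not pass. Igkv14-111 was -0.23 with pseudocount 0.1, -0.22 with voom, -0.69 without Alb-Cre replicate 4 and -0.18 without Alb-WT replicate 3. Over leave-outs Igkv14-111 reached 0.40, Iglv1 ranged from -0.82 to 0.12 (without Alb-Cre replicate 1) and Igkv5-39 from -0.79 to 0.028 (without Alb-Cre replicate 2; 0.026 without replicate 1). Except where a setting tests fewer genes or samples, the cause was not tested.

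Deviations of same-numbered libraries correlated at -0.0968 to 0.0131, and those of other-numbered libraries at -0.182 to 0.135. The labels state no pairing by number, and so few pairs cannot decide whether there was one. A replicate block gave 613 higher and 1631 lower, with 0 higher and 4 lower transport genes.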
